A study of Mus musculus with 3 samples.

Results

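The Hox genes encode homeodomain transcription factors that give cells of the embryo their position along the body axis. Mouse genes with the symbol Hoxa, Hoxb, Hoxc or Hoxd followed by a number were taken, which gave 39 of 55536 annotated genes. The rule used no measured value, but earlier results of these data were known when the members were chosen. The 39 genes were measured in total RNA from F121-9 cells, mouse embryonic stem (ES) cells of a cross between Cast and 129. The 3 libraries are labelled as biological replicates 1, 2 and 3 of this one line at passage 14, with 400 ng of RNA used for each. This single group has no treated, differentiated or mutant counterpart. The labels do not say whether the replicates were grown as separate cultures, so the spread between them may be technical, and they leave the culture medium and any feeder layer unstated. Reads from the Cast and 129 copies of a gene are not kept apart in the values.

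Mouse Hox genes lie in 4 clusters, HoxA to HoxD, and carry paralog numbers 1 to 13 by their place in the cluster. In the embryo the low-numbered genes are switched on earlier and closer to the head, and the high-numbered genes later and closer to the tail. In ES cells the clusters are known as a standard case of Polycomb-repressed chromatin, and retinoic acid, which signals through receptors bound at the low-numbered end, is a standard way to switch them on. HOX proteins bind DNA through the homeodomain, often with PBX and MEIS partners.

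The annotation gave the 39 genes 87 transcripts, 15 genes having 1 and 24 having several. HoxA lies on chromosome 6 with 11 genes, HoxB on chromosome 11 with 10, HoxC on chromosome 15 with 9 and HoxD on chromosome 2 with 9 (all coordinates are on GRCm38, which mm10 also names). The clusters span 105, 174, 116 and 96.8 kb from the first to the last Hox gene.

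The members are told apart by reads that cover the parts where they differ, since all share the homeobox. The 39-base stretch that codes for the recognition helix, which contacts the bases of DNA, shows how close they are, and is given here for 4 members that were expressed by the definition below. Capitals mark the 24 of 39 positions with the same base in all 4, and the letters come from the GENCODE M21 transcripts.
Hoxc12, chr15:102938443-102938481, plus strand: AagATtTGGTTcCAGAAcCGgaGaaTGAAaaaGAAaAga
Hoxc13, chr15:102927345-102927383, plus strand: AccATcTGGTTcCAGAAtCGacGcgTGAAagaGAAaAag
Hoxa10, chr6:52232560-52232598, minus strand: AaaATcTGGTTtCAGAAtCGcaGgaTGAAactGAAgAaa
Hoxa7, chr6:52215849-52215887, minus strand: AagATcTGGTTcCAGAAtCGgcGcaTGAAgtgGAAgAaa
Pairs among these 4 shared 28 to 31 of the 39 bases, and Hoxc12 and Hoxc13, neighbours on the chromosome, shared 28. Over all 39 members, each of which holds such a stretch, 18 positions were the same in every gene. The median pair shared 34 bases within a paralog number (42 pairs) and 30 bases between different numbers (699 pairs).

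Reads of these genes could in part also come from others. Every stretch of 31 bases in a member's transcripts was looked up, on both strands, in the transcripts of all other genes. In 6 members (Hoxa10, Hoxb13, Hoxc11, Hoxc12, Hoxd12 and Hoxd13) all stretches were their own, 20 members shared some with another Hox gene, and 25 shared some with a gene outside the family. Hoxc13 had 99.9% and Hoxc4 99.8% of its own, and Hoxa7 had 79.5%. The lowest was Hoxd3 with 38.8%, where the readthrough gene Gm28230 held 52.6% of the stretches, followed by Hoxb3 with 47.3%, where the antisense gene Hoxb3os held 52.1%. Hoxd4 had 50.9% and Hoxa11 66.1%. Levels of the 10 members with under 90% of their own are uncertain. Where the other gene is antisense, as Hoxb3os is, this depends on the strand setting of the counting, which is not given in the sources used here. Gm28230 lies on the same strand as Hoxd3 and Hoxd4, so there a strand setting could not tell the reads apart.

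Most Hox genes were near or at the limit of detection. A gene was called expressed where it reached at least 1 TPM (a transcript's share of all transcripts, corrected for length and scaled to a fixed total) in all 3 libraries of the RSEM-style gene tables. Each library has a gene table and a transcript table with RSEM's column names, made from transcriptome alignments and called RSEM-style, and a transcript table with kallisto's column names, made from the reads and called kallisto-style, whose values were summed per gene. By this definition 6 of 39 members were expressed, 15.4%, against 52.1% of 22028 protein-coding genes and 23.6% of all genes. Hoxc12, Hoxc13, Hoxc4, Hoxa10 and Hoxa7 were among them. Another 25 members had a count in some library without reaching that level, and 8 members, 20.5%, had 0 counts in all 3 libraries, where 25.4% of protein-coding genes had 0. In the kallisto-style tables the same 6 genes were expressed (52.5% of protein-coding genes), and 4 members were at 0 (17.4% of protein-coding genes). Counts of the 2 quantifications are on different scales. Over all rows a library held 17717726 to 19156106 kallisto-style counts, against 9765384 to 10610782 RSEM-style. Of all members 5 lay above the median protein-coding gene. The mean level of Hoxc12, the highest, stood at percentile 58.1 among protein-coding genes and that of the median member at percentile 35.5.

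**Figure D1:**
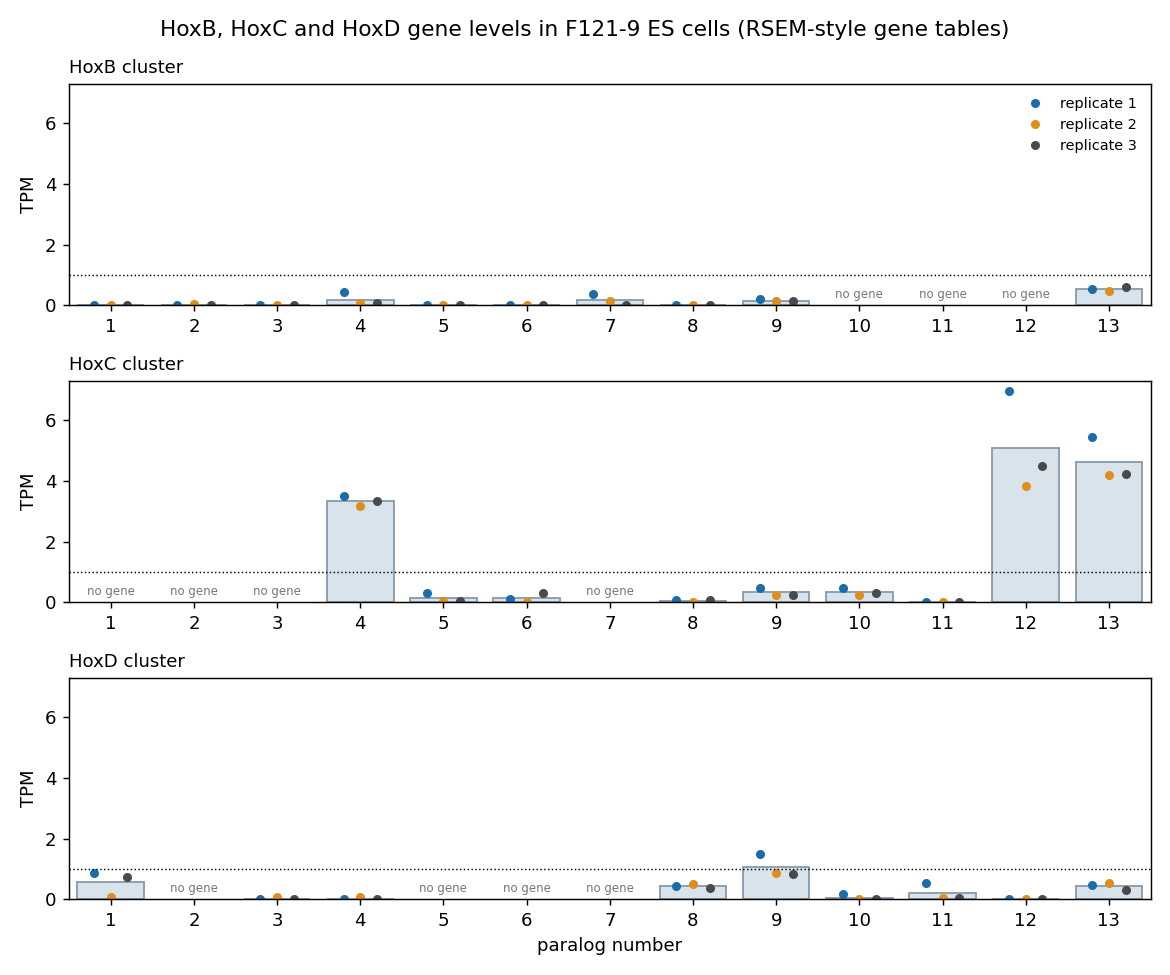
Level of the HoxB, HoxC and HoxD genes in TPM by paralog number (x axis), with bars for the mean of 3 libraries, points for replicates 1 to 3 and a dotted line at 1 TPM. All points lie above the line for 3 genes of HoxC, and for no gene of HoxB or HoxD.

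The posterior end of HoxC held the highest members. Hoxc12 (ENSMUSG00000050328.2, chromosome 15, 102936757 to 102938609) had 6.96, 3.82 and 4.49 TPM in replicates 1, 2 and 3, a mean of 5.09 ± 1.65 TPM (SD, n = 3, as for all means here) from 95 counts in all. Hoxc13, a regulator of hair keratin genes (ENSMUSG00000001655.6, chromosome 15, 102921103 to 102928814), had 5.44, 4.19 and 4.22 TPM and a mean of 4.62 ± 0.713 TPM from 235 counts. Both were highest in replicate 1, and their ranges overlapped, Hoxc12 being the higher in 2 of 3 libraries. The next gene in the row, Hoxc11, had 0 counts in each library, and Hoxc10 and Hoxc9 averaged 0.337 and 0.323 TPM.

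At the anterior end of the same cluster, Hoxc4 stood apart from its neighbours by level. Hoxc4 takes part in patterning the cervical and upper thoracic vertebrae (ENSMUSG00000075394.4, chromosome 15, 103018934 to 103036852). It had 3.50, 3.16 and 3.34 TPM, a mean of 3.33 ± 0.170 TPM from 134 counts and the smallest relative spread of the 6. Hoxc5, Hoxc6 and Hoxc8, next to it, averaged 0.130, 0.127 and 0.0533 TPM from 7, 3 and 2 counts.

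In HoxA, 3 of 11 genes were expressed. Hoxa10, which patterns the lumbar vertebrae and the uterus (ENSMUSG00000000938.11, chromosome 6, 52231197 to 52240854), had 3.92, 2.82 and 2.11 TPM and a mean of 2.95 ± 0.912 TPM from 120 counts. Replicate 1 was the highest and replicate 3 the lowest.

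Hoxa9 and Hoxa7, both known from blood progenitors and leukaemia, lay close to the 1 TPM line. Hoxa9 (ENSMUSG00000038227.15, chromosome 6, 52223100 to 52231089) had 1.77, 2.20 and 0.810 TPM, a mean of 1.59 ± 0.712 TPM from 57 counts, and missed the definition through replicate 3. Hoxa7 (ENSMUSG00000038236.8, chromosome 6, 52214491 to 52221854) had 2.23, 1.39 and 1.10 TPM, a mean of 1.57 ± 0.587 TPM from 57 counts, and met it. The means of Hoxa9 and Hoxa7 thus differed by far less than their spread, although they fell on different sides of the definition.

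Among the other HoxA genes, Hoxa3, which is needed for the thymus and parathyroid, had 0.430 ± 0.370 TPM, and the upper bound of its deposited credible interval reached 3.79 TPM (the level of this interval is not given in the sources used here). Hoxa13, which patterns digits and genital structures, averaged 0.263 TPM, Hoxa5, known from lung development, 0.267 TPM, and Hoxa2, which sets the identity of the second pharyngeal arch, 0.0267 TPM from 1 count. Hoxa6 had 0 counts.

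HoxD held no gene at 1 TPM in all libraries. Hoxd9 (ENSMUSG00000043342.9, chromosome 2, 74697727 to 74700208) came nearest, with 1.49, 0.850 and 0.820 TPM and a mean of 1.05 ± 0.378 TPM from 46 counts. Hoxd1, which shapes the wiring of pain-sensing neurons in mice (ENSMUSG00000042448.5, chromosome 2, 74762980 to 74765142), had 0.870, 0.0800 and 0.720 TPM and a mean of 0.557 ± 0.420 TPM from 21 counts. Replicate 2 was the lowest, from 1 count against 11 and 9 in replicates 1 and 3. The kallisto-style levels of Hoxd1 were closer together, at 0.544, 0.303 and 0.441 TPM from 14, 8 and 12 counts. Hoxd8 averaged 0.447 TPM and Hoxd13, the main digit-patterning gene of the cluster, 0.430 TPM, and Hoxd12 had 0 counts.

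HoxB was the lowest cluster. Its highest member in the RSEM-style tables, Hoxb13, known from the prostate and the tail end of the axis (ENSMUSG00000049604.3, chromosome 11, 96194316 to 96197447), had 0.520, 0.480 and 0.600 TPM and a mean of 0.533 ± 0.0611 TPM from 24 counts. In the kallisto-style tables Hoxb13 averaged 0.398 ± 0.0644 TPM and Hoxb1 had the highest mean of the cluster at 0.515 ± 0.109 TPM. Hoxb4, known for expanding blood stem cells, averaged 0.187 TPM, and Hoxb2 averaged 0.0167 TPM from 1 count. Of its 10 genes 5 had 0 counts, namely Hoxb1, Hoxb3, Hoxb5, Hoxb6 and Hoxb8.

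A count of 0 did not exclude low levels. For the 8 members at 0, the level that 3 counts would give, the limit a count of 0 allows, lay between 0.168 and 0.614 TPM in single libraries, for counting error only. The upper bound of the deposited credible interval reached 1.96 TPM for Hoxb3 and 1.00 TPM for Hoxb8, and 0.154 TPM for Hoxd12.

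The 21 members with counts that stayed under a mean of 0.5 TPM in both quantifications averaged 0.0167 TPM, in Hoxb2, to 0.447 TPM, in Hoxd8, in the RSEM-style tables. Set in order of mean level, most neighbours could not be told apart. Of the 9 steps between the 10 highest genes of the RSEM-style tables, the ranges of the 3 libraries overlapped in 8. The exception was the step between Hoxc13 and Hoxc4, a difference of 1.28 TPM, with Hoxc13 higher in 3 of 3 libraries. Only 3 libraries a gene stand behind this order.

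Taken by cluster, HoxC gave most of the Hox signal by RSEM-style TPM, and HoxB least. Over all 39 members the summed level was 33.8, 24.2 and 23.4 TPM in replicates 1, 2 and 3, or 27.1 ± 5.79 TPM. HoxC gave 17.3, 11.7 and 13.02 TPM, a mean of 14.01 ± 2.92 TPM and 51.7 ± 3.71% of the Hox total. HoxA gave 11.04, 9.52 and 7.32 TPM, a mean of 9.29 ± 1.87 TPM and 34.4 ± 4.27%. HoxD followed with 3.96, 2.15 and 2.25 TPM, or 10.1 ± 1.47%, and HoxB with 1.51, 0.850 and 0.790 TPM, or 3.78 ± 0.594%. This order of the 4 clusters was the same in each of the 3 libraries. The HoxB sum rests on few counts, and stood at 1.05 ± 0.399 TPM in the RSEM-style tables, against 1.49 ± 0.0689 TPM in the kallisto-style tables and 3.82 TPM by the deposited posterior means.

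**Figure D2:**
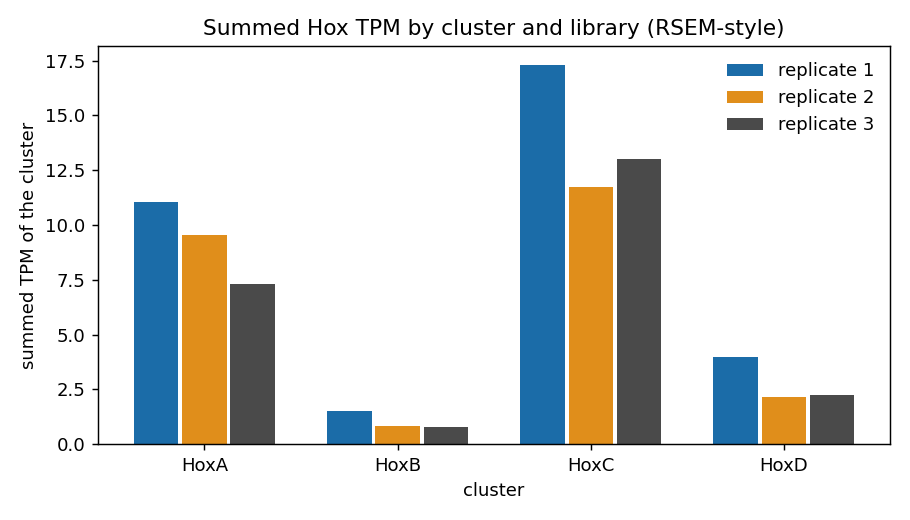
Summed TPM of the Hox genes of each cluster (x axis), 1 bar for each of replicates 1, 2 and 3 (RSEM-style gene tables). HoxC is the highest cluster and HoxB the lowest in every library, and replicate 1 is the highest library in every cluster.

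Taken by paralog number, the high-numbered genes gave most. Numbers 9 to 13 gave 17.7 ± 4.33 TPM, 65.0 ± 2.32% of the Hox total, from 16 genes, of which 3 were expressed. Numbers 5 to 8 gave 2.76 ± 1.06 TPM, or 9.94 ± 1.66%, from 11 genes, of which 1 was expressed. Numbers 1 to 4 gave 6.67 ± 0.596 TPM, or 25.1 ± 3.91%, from 12 genes, of which 2 were expressed. Single genes carried these sums. Hoxc4 made up 3.333 of the 3.603 TPM of number 4, Hoxc12 all 5.09 TPM of number 12, and Hoxc13 4.62 of the 5.84 TPM of number 13. Number 2, with Hoxa2 and Hoxb2, gave 0.0433 TPM.

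The summed Hox level was highest in replicate 1. The members held 424, 312 and 304 counts in replicates 1, 2 and 3, in libraries with 10425623, 9575747 and 9974983 counts over all genes. Each library had a count for 26 members. Of the 31 members with any count, 19 had their highest RSEM-style TPM in replicate 1, 6 in replicate 2 and 6 in replicate 3. The same split over all genes was not computed, and many of these members rest on few counts, so nothing is read from it. In the RSEM-style tables all 6 expressed members lay higher in replicate 1 than in the mean of replicates 2 and 3. Of all 13113 expressed genes 61.7% did. The median log2 ratio was 0.52 for the 6 members and 0.06 for all expressed genes. In the kallisto-style tables Hoxa10 was highest in replicate 2, at 2.61, 2.70 and 2.11 TPM in replicates 1, 2 and 3. The kallisto-style sum of all members was 29.3, 23.8 and 21.9 TPM.

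No Hox gene was called variable between the libraries. In edgeR's quasi-likelihood fit, 8 members had enough counts to be tested (the 6 expressed ones, Hoxa9 and Hoxd9). The test called 0 of them, against 5 of 13391 genes (0.0373%), and 0 had an unadjusted p under 0.05, against 4.56% of genes. The lowest unadjusted p was that of Hoxa9 at 0.0668 (edgeR, adjusted p = 0.987). Under the other settings 0 members were called as well. Without replicate 1, between the 2.20 and 0.810 TPM of replicates 2 and 3, Hoxa9 had an unadjusted p of 0.00775 and an adjusted p of 0.654 by the same test.

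Both quantifications gave the expressed members like values. In the RSEM-style tables Hoxc12 stood at 5.09 ± 1.65 TPM, against 4.90 ± 1.15 TPM in the kallisto-style tables. Hoxc13 had 4.62 ± 0.713 TPM RSEM-style and 4.42 ± 0.676 TPM kallisto-style. Hoxc4 had 3.33 ± 0.170 TPM RSEM-style and 2.83 ± 0.478 TPM kallisto-style. Hoxa10 had 2.95 ± 0.912 TPM RSEM-style and 2.48 ± 0.319 TPM kallisto-style. The ranges of the 3 libraries overlapped between the tables for these genes. For Hoxa7 the values were 1.57 ± 0.587 TPM RSEM-style and 1.51 ± 0.311 TPM kallisto-style.

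The limma test on the log2(TPM + 1) difference in each library, RSEM-style minus kallisto-style, called 0 of 6 members at an adjusted p under 0.05 and a difference of at least 1, against 13.1% of 14738 genes. At an unadjusted p under 0.05 it had 1, and without the minimum difference it called 1, against 77.5% of genes. Hoxc4 had a difference of 0.18 (SE 0.08, limma adjusted p = 0.0885), higher RSEM-style in 3 of 3 libraries. The median difference was 0.11 for the 6 members and 0.25 for all genes tested. Differences on this scale understate the change of low genes.

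**Figure D3:**
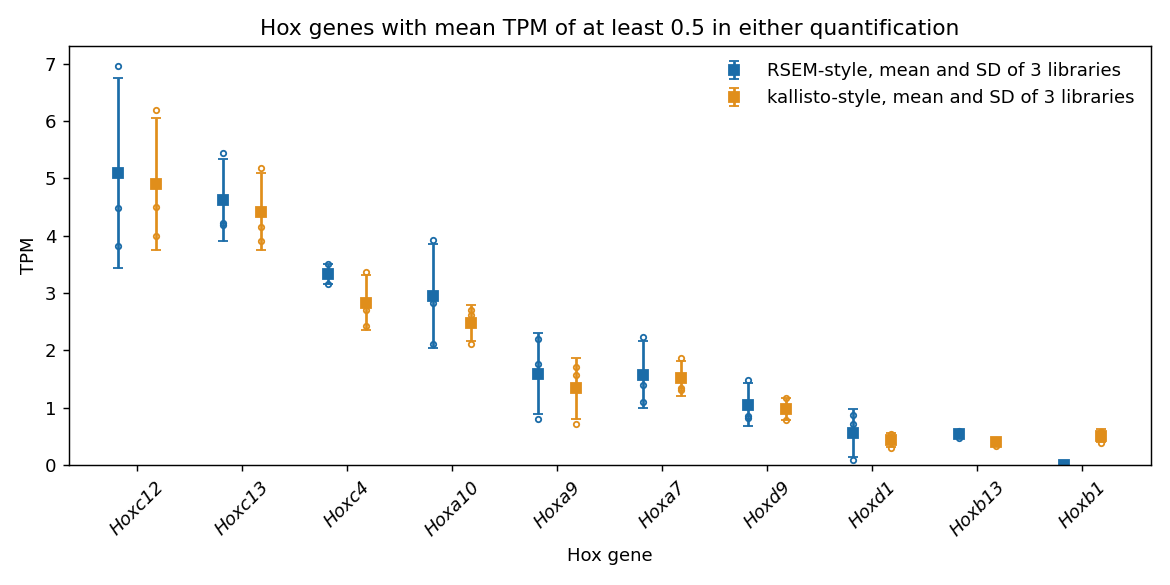
TPM of 10 Hox genes with a mean of at least 0.5 TPM in either quantification (y axis), RSEM-style left of kallisto-style for each gene, with open circles for libraries and squares with bars for mean and SD (n = 3). The bars overlap for all genes drawn but Hoxb13 and Hoxb1, and Hoxb1 is at 0 in the RSEM-style tables and at 0.515 TPM in the kallisto-style ones.

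Hoxb1 was the member on which the quantifications parted. Hoxb1 gives the fourth hindbrain segment its identity and is a known retinoic acid target (ENSMUSG00000018973.2, chromosome 11, 96365752 to 96368256). It had 0 counts in all 3 libraries of the RSEM-style tables, against 17, 17 and 12 counts in the kallisto-style ones, where its level was 0.585, 0.569 and 0.389 TPM, or 0.515 ± 0.109 TPM. Kallisto-style libraries hold more counts in all, so these counts are not on the scale of the RSEM-style ones. The upper credible bounds of the RSEM-style tables, 0.661, 0.696 and 0.672 TPM, lay above those levels. With the limma test run on all genes with a mean above 0, its log2(TPM + 1) difference was -0.60 (SE 0.06, adjusted p = 0.00678), lower RSEM-style in 3 of 3 libraries. A gene at 0 in one kind of table and at these levels in the other cannot reach the minimum difference of 1 on this scale, so Hoxb1 could not be called. Of its 31-base stretches 99.7% occur in no other gene. Hoxa6, Hoxb5 and Hoxc11 also had 0 RSEM-style counts and had 1, 3 and 2 counts in the kallisto-style tables, while Hoxb3, Hoxb6, Hoxb8 and Hoxd12 were at 0 in both.

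The choice of transcript was less firm than the level of the gene. Hoxa10-201 had 1.10, 0.210 and 0 TPM in replicates 1, 2 and 3 of the RSEM-style tables, and Hoxa10-202 had 0.790, 1.67 and 1.09 TPM. Hoxa10-201 was thus the higher of both in replicate 1 and the lower in replicates 2 and 3. The gene held 120 counts in all.

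Of Hoxa10, the protein-coding Hoxa10-202 took 43.7 ± 20.7% and the noncoding processed transcript Hoxa10-203 took 44.4 ± 9.77% of the gene's TPM in the RSEM-style tables, against 43.1 ± 16.7% and 35.9 ± 8.57% in the kallisto-style ones. Hoxa9-201 took 43.4 ± 13.62% and Hoxa9-202 27.4 ± 20.9% RSEM-style. Hoxc4-201 took 95.1 ± 5.50% of its gene RSEM-style, against 94.0 ± 2.52% kallisto-style. Hoxa7-201 took 84.8 ± 13.8% RSEM-style, against 82.6 ± 18.4% kallisto-style, and was lowest in replicate 2 with 73.2% RSEM-style and 63.4% kallisto-style. Limma tested 4 Hox transcripts (those numbered 201 of Hoxa7, Hoxc4, Hoxc12 and Hoxc13) and called 0, with 0 at an unadjusted p under 0.05, against 19.5% of 28549 transcripts called. Without the minimum difference it also called 0, against 61.9% of transcripts.

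**Figure D4:**
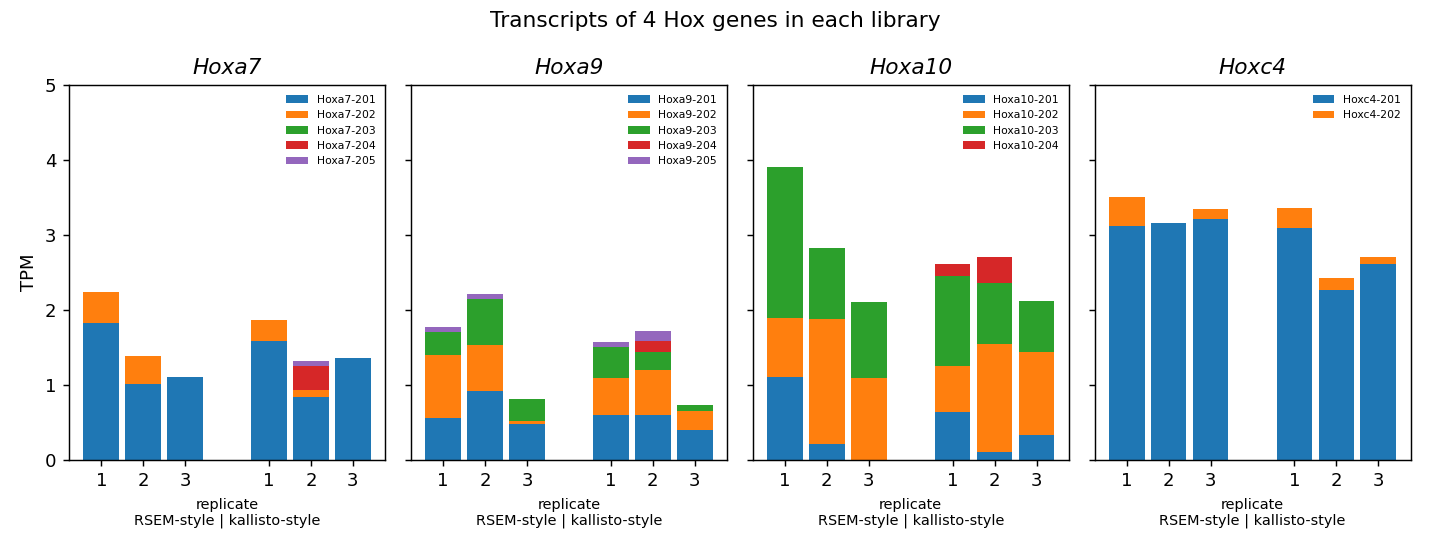
TPM of each transcript (colours) of Hoxa7, Hoxa9, Hoxa10 and Hoxc4 in replicates 1 to 3, RSEM-style in the left 3 bars and kallisto-style in the right 3. Hoxa10-201 is at 0 in replicate 3 of the RSEM-style tables, and Hoxc4 is mainly Hoxc4-201 throughout.

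The clusters also hold 46 other genes, of which 43 are not protein-coding. Of those 43, 2 were expressed, where 4.88% of all 33508 genes that are not protein-coding (pseudogenes included) were, and 30 had 0 counts, where 80.3% did. Hotairm1, an antisense RNA known to regulate HoxA genes in human myeloid cells, had 3.34, 6.43 and 11.5 TPM and a mean of 7.10 ± 4.13 TPM in the RSEM-style tables, against 8.14 ± 1.54 TPM in the kallisto-style ones. The RSEM-style level of Hotairm1 came from 28.1 counts in all, on an effective length of 196 bases in replicate 1. Hotairm1 overlaps a HoxA gene, and the strand setting of the counting is not given, so its level is uncertain. Gm53, a long noncoding RNA gene inside HoxB, had 2.71, 4.25 and 2.79 TPM, or 3.25 ± 0.867 TPM RSEM-style, above every Hox gene of that cluster in each library. Hotair, inside HoxC, averaged 0.0267 TPM. The microRNA genes Mir196b, Mir196a-1, Mir196a-2, Mir10a, Mir10b and Mir615 are listed with effective length 0 by the RSEM-style tables, so no level can be computed for them there.

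Outside the clusters, most of the nearby protein-coding genes were expressed. They were taken as the 2 nearest on each side of each cluster, 16 in all. Of these 12 were expressed, where 52.1% of all protein-coding genes were. Cbx5, the gene of heterochromatin protein HP1 alpha, had 51.2 TPM beyond Hoxc4, and Atp5g2, a subunit of mitochondrial ATP synthase, had 565 TPM beyond Hoxc13. Smug1 and Calcoco1 lie nearer to HoxC on those sides, in that order, and had 14.6 and 12.7 TPM. Skap2 and Mtx2, the nearest gene on a side of HoxA and of HoxD, had 48.2 and 51.7 TPM. Hibadh at HoxA, Lnpk at HoxD, and Calcoco2 and Snx11 at HoxB had 115, 29.8, 52.8 and 11.6 TPM. Each of them was the farther gene on its side. The 4 that were not expressed were Evx1 with 0.450 TPM, Evx2 with 0, Ttll6 with 0.697 TPM and Skap1 with 0.183 TPM. Each of these 4 was the nearest protein-coding gene on its side, and Ttll6 and Skap1 are the nearest on both sides of HoxB. Evx1 and Evx2, homeobox genes related to even-skipped of Drosophila, lie next to the high-numbered ends of HoxA and HoxD, 52618 and 8753 bases away.

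**Figure D5:**
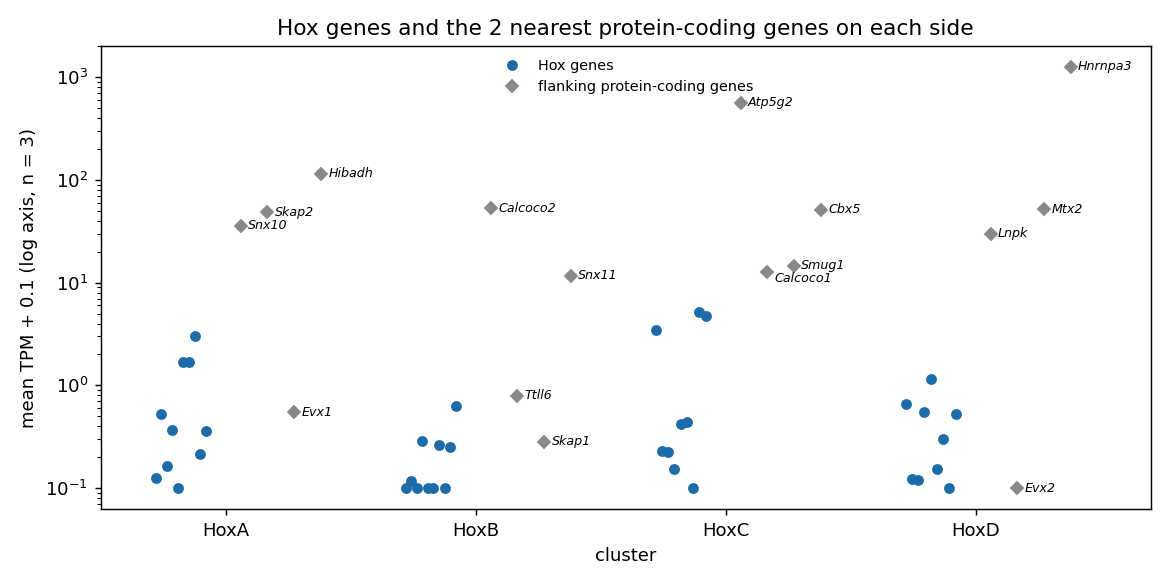
Mean TPM plus 0.1 on a log axis for Hox genes of each cluster (circles) and for the 2 nearest protein-coding genes on each side (diamonds, named). The circles lie between 0 and 5.09 TPM, while 12 of the 16 diamonds lie between 11.6 and 1256 TPM.

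The promoters of an expressed and an unexpressed member are shown to give the sequence context. They are the 250 bases before the annotated start, from RefSeq on GRCm38.p6, with each CG pair in capitals.
Hoxc4, chr15:103034145-103034394, plus strand: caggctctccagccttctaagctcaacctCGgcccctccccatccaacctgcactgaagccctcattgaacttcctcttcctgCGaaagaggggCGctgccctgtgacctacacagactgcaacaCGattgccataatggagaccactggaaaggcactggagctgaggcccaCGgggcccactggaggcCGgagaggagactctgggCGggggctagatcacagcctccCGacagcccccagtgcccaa
Hoxb8, chr11:96281655-96281904, plus strand: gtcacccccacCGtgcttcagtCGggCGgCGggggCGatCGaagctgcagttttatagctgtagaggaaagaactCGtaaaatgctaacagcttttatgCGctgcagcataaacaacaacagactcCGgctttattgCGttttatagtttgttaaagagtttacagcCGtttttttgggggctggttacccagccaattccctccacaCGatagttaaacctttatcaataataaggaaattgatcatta
The stretch of Hoxc4, at 3.33 TPM and upstream of the start of Hoxc4-201, holds 8 CG pairs at 62.0% G and C. That of Hoxb8, at 0 counts, holds 12 at 44.4%. The RefSeq promoter table held 24 entries for 22 of the members. Their median G and C content was 58.6%, against 52.4% over the 32851 entries used, which leave out a chromosome without Hox clusters. The ratio of CG pairs seen to those expected from base composition had a median of 0.721, against 0.373 over the entries used, and 19 of the 24 lay above that value. The letters TATAAA, on either strand, occurred in 4 of the 24 (16.7%), one of them Hoxb8, and in 12.4% of the entries used.

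Of the genes that act with or on the Hox genes, some lists lay above the 52.1% expressed among protein-coding genes and others near or below it. Of 11 genes for the TALE homeodomain partners and their relatives, 9 (81.8%) were expressed, led by Tgif1 at 98.1, Tgif2 at 29.6, Pknox1 at 18.2 and Pbx4 at 6.16 TPM, with Meis1 lowest at 0.257 TPM. The caudal and ParaHox genes, which regulate Hox genes or are related to them, gave 2 of 6 (33.3%). Cdx1 stood at 137 ± 8.41 TPM and Gsx2 at 3.59 ± 0.332 TPM, while Cdx4 and Cdx2 stood at 0.103 and 0.0867 TPM and Pdx1 at 0.0233 TPM. Of 18 genes of retinoic acid supply, binding and reception, 10 (55.6%) were expressed in the RSEM-style tables and 9 in the kallisto-style ones. Crabp1, a binding protein, had 39.8 TPM, the receptor genes Rxrb and Rara had 31.2 and 29.0 TPM, Dhrs3, which turns retinaldehyde back to retinol, had 20.6 TPM, and Rxrg had 0.

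Both classes of chromatin regulators known to act on Hox clusters were expressed. All 19 Polycomb genes listed were, led by Eed at 288, Suz12 at 225, Mtf2 at 197 and Ezh2 at 160 TPM, with Phf1 lowest at 2.24 TPM. Of the 12 trithorax and MLL complex genes 12 were expressed in the RSEM-style tables and 11 in the kallisto-style ones, led by Ash2l at 378, Dpy30 at 308, Psip1 at 200.2 and Wdr5 at 164 TPM, with Ash1l lowest at 1.38 TPM. Among all protein-coding genes 52.1% were expressed.

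Markers of other cell types, in which Hox genes can be active, were measured beside the Hox genes, whose sum was 23.4 to 33.8 TPM. The ES cell list was expressed in 6 of 6 genes, with Nanog at 505 and Pou5f1 at 495 TPM. None of the 10 neural markers was expressed, 6 had 0 counts, and they summed to 0.290, 1.12 and 0.700 TPM in replicates 1, 2 and 3. Of 9 mesoderm and primitive streak markers 3 were expressed, with sums of 16 to 18.6 TPM, led by Gsc at 8.90 ± 0.484 TPM and T at 4.86 ± 1.70 TPM, the first above and the second near the 5.09 TPM of Hoxc12. Of 7 endoderm markers 2 were expressed RSEM-style and 1 kallisto-style, with RSEM-style sums of 4.02 to 4.68 TPM. Of 12 fibroblast markers, listed for possible feeder cells, 2 were expressed RSEM-style and 3 kallisto-style, and Col3a1, Postn, Lum, Dcn and Twist2 had 0 counts. The 12 summed to 56.5 to 65.2 TPM, above the sum of the Hox genes. Fbln1 gave 57.7 TPM of this on average, and Col1a1 and Col1a2 averaged 0.610 and 0.267 TPM. In bulk RNA a few cells with much Hox RNA and many cells with little cannot be told apart, and the part of other cell types in the Hox levels was not tested.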

How the data were processed

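Total RNA-seq of 3 libraries was analysed, with 9575747 to 10425623 counts assigned to genes in the gene tables. Notes deposited with the libraries name mm10 and GENCODE M21. The deposited gene table and one transcript table, called RSEM-style here for their column names, derive from transcriptome alignments according to those notes and hold expected counts, TPM, posterior means and credibility bounds. The other deposited transcript table, called kallisto-style for its columns, derives directly from the read files and holds estimated counts and TPM. The deposited percent of each gene given to a transcript was not used, and shares were computed from TPM. The deposited TPM values sum to the same total in each library, so they are relative levels. The sources used here do not give the quantifiers, the aligner, their versions or the strand setting. Rows with no gene ID, 1.75 to 1.97% of the counts, were left out of library sizes and tests.

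The 39 members, the other gene lists and the tests were chosen with earlier results of these data known. Kallisto-style gene values are sums over transcripts. Counts were rounded for edgeR 4.0.16 (filterByExpr, TMM, quasi-likelihood with an intercept only), where an F test compared the dispersion of a gene with the trend. Limma 3.58.1 tested the RSEM-style minus kallisto-style difference of log2(TPM + 1) in genes at 1 TPM or more in either table in all 3 libraries. Adjustment was by Benjamini-Hochberg over all features tested, at 0.05. Both tests were first tested on simulated data. A count of 0 allows up to 3 counts. Library values are given for members with a mean of at least 0.5 TPM in either quantification, for the highest member of each cluster and of the other lists by the 4 highest and the lowest; members and list genes named beyond these were chosen after their values were seen. Not everything so chosen is reported here. RefSeq promoters were matched by symbol. Software was R 4.3.3, DESeq2 1.42.0 for size factors, Python 3.11.15, numpy 2.4.6, pandas 2.3.3 and matplotlib 3.10.9. Alternatives were other TPM thresholds, pseudocounts, filters and size factors, the other quantification, posterior means and leaving out each replicate.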

Additional observations from a re-analysis of the deposited data

How the results depend on the processing

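The count of expressed members was 6 at the main threshold, 8 at 0.5 TPM, 4 at 2 TPM, 8 by posterior means and 6 or 7 when 1 replicate was left out, Hoxa9 being added without replicate 3. It was 6 where the lower credibility bound had to reach 1 TPM, an alternative chosen after seeing the data. The members at 0 counts numbered 8, but 4 by kallisto-style counts, and 9 to 11 when 1 replicate was left out. By posterior means, which give a positive level to genes without counts, the summed level was 35.7 TPM in all, 13.3 TPM for HoxA, 3.82 TPM for HoxB and 4.58 TPM for HoxD. By kallisto-style TPM, HoxB summed to 1.49 TPM. With 1 replicate left out the sums were 23.8 to 29.0 TPM in all, 8.42 to 10.3 for HoxA, 0.820 to 1.18 for HoxB, 12.4 to 15.2 for HoxC and 2.20 to 3.11 for HoxD. EdgeR called 0 members under every setting, while over all genes it called 5 in the main fit, 6 with DESeq2 size factors, 34 without the filter, 16 with kallisto-style counts and 7 to 14 when 1 replicate was left out. Limma called 0 Hox genes, and 1 without the minimum difference, where calls over all genes numbered 11420 in place of 1935 and over all transcripts 17681 in place of 5570. For the 11 genes with a mean of at least 0.5 TPM in either quantification, 47 of 55 alternatives moved the mean by no more than 1 SD. No paired analysis was possible because the 3 libraries form 1 group, so that no groups share replicate numbers. The quantifications were compared within each library. With 57 to 235 counts behind each expressed member, and 24 or fewer behind most others, depth limits the order of low members.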

Other observations

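Genes of very short effective length inside the clusters gave values that few counts carry. Gm27867, a miscellaneous RNA gene inside HoxA, was listed at 0, 0 and 48.1 TPM in replicates 1, 2 and 3 of the RSEM-style tables, above every Hox gene in replicate 3. That value came from 0.940 counts on an effective length of 2.61 bases. It was chosen after its value was seen.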
